A study of Mus musculus with 6 samples.

Results

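The lysyl oxidase family of the mouse comprises Lox and the lysyl oxidase-like genes Loxl1, Loxl2, Loxl3 and Loxl4. The members were chosen by gene name, and all 5 were found among the 41126 genes of the deposited gene table. Each of the 5 passed the filter on low counts and was tested.

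The study asked which genes of cultured dermal fibroblasts respond to β-catenin, the transcriptional effector of Wnt signaling, when the protein is stabilized. Total RNA was sequenced from 6 cultures of primary dermal fibroblasts, grown separately for each animal from ventral trunk skin and passaged before infection. The labels give postnatal day 4 and a mixed CD1 and C57Bl6 background for all of them. The 3 Control cultures carried the genotype label AdGFP; +/+, and the 3 GOF (gain of function) cultures AdCre; Ctnnb1{delta}ex3/+, in which a Cre-expressing adenovirus removes exon 3 of 1 copy of Ctnnb1 and so stabilizes β-catenin. The study's methods describe the cells of both groups as coming from mice with the same Ctnnb1 allele, with a GFP adenovirus given to the controls, so virus and stabilized β-catenin changed together between the groups and their effects cannot be told apart. The treatment label lists a Cre adenovirus at an MOI of 366 to 500 for 6 h for every sample, controls included. The study profiled RNA days after infection, so the 6 h is not the time from infection to RNA. The number tags in the titles, read here as animals, give 4 animals: 1 gave Control 0 and GOF 2, another gave Control 2 and GOF 0, and Control 1 and GOF 1 stood alone. The p-values therefore measure the spread between cultures of few animals.

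Lysyl oxidases are secreted copper enzymes that oxidize lysine residues of collagen and elastin to aldehydes, which then condense into the covalent crosslinks that give skin, vessels and bone their tensile strength. Lox and Loxl1 are made as proenzymes with a propeptide that is removed outside the cell, whereas Loxl2, Loxl3 and Loxl4 carry scavenger receptor cysteine-rich domains in front of the same catalytic domain. In skin, dermal fibroblasts are a main source of these enzymes and of their substrates, and excess crosslinking is a known feature of fibrotic tissue.

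A single member was both past the adjusted p threshold and changed over 2-fold: Loxl4 was 3.36-fold higher in GOF cultures. Loxl1 was 1.67-fold lower at an adjusted p of 0.00462 (edgeR quasi-likelihood test). Lox, the most abundant member by far, was lower in all 3 GOF cultures than in any Control culture but missed the threshold, with an adjusted p of 0.0684 (edgeR). Loxl2 and Loxl3 overlapped between the groups. Thus 1 of 5 members was called (adjusted p under 0.05 and fold change over 2), and higher, in a comparison in which 12.3% of the 15462 genes tested were called, 6.69% higher. At an adjusted p under 0.05 alone, 2 of 5 members passed, 1 lower and 1 higher, against 21.2% of all genes, 10.2% lower and 11.1% higher. For 3 of 5 members, 2 lower and 1 higher in GOF, every FPKM of one group lay beyond every FPKM of the other, which held for 39.5% of all genes, 19.2% lower and 20.3% higher.

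Lox was left out of the promoter search, and of the other members only Loxl4 was matched in the promoter table used here. The promoter of Loxl4, the member that was called, is shown. It is the 250 bases before the annotated start at chr19:42612807-42613056, minus strand, taken from RefSeq on GRCm38.p6 and written 5′ to 3′ on the strand of the gene, with CG pairs in capitals.
Loxl4: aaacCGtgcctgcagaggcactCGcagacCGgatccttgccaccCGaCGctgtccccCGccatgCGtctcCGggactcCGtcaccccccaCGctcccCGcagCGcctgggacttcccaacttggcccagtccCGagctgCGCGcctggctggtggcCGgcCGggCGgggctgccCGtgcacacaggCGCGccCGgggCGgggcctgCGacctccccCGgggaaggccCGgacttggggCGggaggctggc
This stretch had a GC content of 76.0% and held 27 CG pairs, where the median promoter of the same length held 6 and had a GC content of 52.4%. At least as many CG pairs were found in 8.56% of the 32851 promoters. A search was made for AACAAAG, for ATCAAAG, for TACAAAG and for TTCAAAG, forms of the sequence that the Tcf/Lef partners of β-catenin recognize, on both strands of the window from 250 bases before to 50 after the start. None was found for Loxl4, and 16.9% of all promoters held at least 1. The absence says only that these letters were not in that window.

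The libraries held 35980831 to 42834467 fragments, and Axin2, a direct target of β-catenin, separated the groups as labelled. Axin2 measured 0.144, 0.136 and 0.177 FPKM in Control 0, 1 and 2 and 19.2, 14.4 and 18.7 FPKM in GOF 0, 1 and 2, a log2 fold change of 6.98 (SE 0.26, edgeR adjusted p = 4.95e-05). Ctnnb1 itself measured 267 ± 16.3 FPKM in Control and 263 ± 28.8 FPKM in GOF (SD, n = 3 each), a level over the whole gene that does not show whether exon 3 was removed. Control 0 stood apart by its summed FPKM over all genes, 716361 against 508938 to 594842 in the other 5 libraries. The main edgeR fit below used fragments with TMM scaling. The exact permutation tests, group overlaps, sums, within-animal ratios and profiles used the FPKM as deposited, without rescaling for this difference. All 8 fibroblast markers averaged at least 1 FPKM, while 6 of 8 keratinocyte markers averaged under 0.1 FPKM. Several marker genes of other cells moved with the groups: the summed keratinocyte markers ran from 0.488 to 0.604 FPKM in Control and 2.96 to 6.87 in GOF. In Control most of that sum was Krt10 (0.359 to 0.426 FPKM), and Dsp was 0.0754 to 0.0811 FPKM in Control and 2.39 to 6.36 FPKM in GOF. The sums of skeletal muscle markers ran from 23.3 to 27.6 and from 138 to 173 FPKM, nearly all of it Acta1. The summed fibroblast markers ran from 3020 to 3850 FPKM in Control and 2490 to 3020 in GOF, with Col1a2 and Dcn called lower. Of the same list, Vim measured 719 to 866 FPKM in Control and 1200 to 1510 FPKM in GOF (log2 fold change 0.70, edgeR adjusted p = 0.028), and Thy1 308 to 344 FPKM in Control and 495, 494 and 222 FPKM in GOF 0, 1 and 2. In adipocyte markers the sums were 7.18 to 8.95 against 1.80 to 3.17 FPKM (Fabp4, with Lep at 0), and in those of melanocytes or Schwann cells 6.88 to 7.30 against 5.08 to 6.37. Endothelial, macrophage and pericyte or smooth muscle sums overlapped between the groups, although Kdr (log2 fold change 1.77, edgeR adjusted p = 0.011) and Csf1r (1.52, 0.00186) were called higher and Tek (-2.27, 0.019) lower. Their part in the results was not tested, and in such bulk samples fewer cells of a type and less RNA per cell cannot be told apart.

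Lox (ENSMUSG00000024529.8, GRCm38, chromosome 18, 52516067 to 52529867, minus strand) encodes the founding enzyme of the family, which crosslinks fibrillar collagen and elastin. It measured 798, 810 and 701 FPKM (fragments scaled to transcript length and to the mapped fragments of the library) in Control 0, 1 and 2, and 430, 339 and 669 FPKM in GOF 0, 1 and 2. The groups did not overlap, but GOF 2 lay only just below the lowest Control culture. The underlying fragments numbered 130359, 149396 and 133192 in Control and 82076, 66375 and 118861 in GOF. The mean level was 770 ± 59.5 FPKM in Control and 480 ± 171 FPKM in GOF (SD, n = 3 each), and the SD was 7.73% of the mean in Control and 35.6% in GOF.

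The fitted log2 fold change of Lox was -0.69 (SE 0.23, 95% interval -1.21 to -0.16), a 1.61-fold lower level with an adjusted p of 0.0684 in edgeR. A two-sided exact permutation test of its FPKM gave p = 0.1, the smallest value that 3 against 3 cultures allow. Lox passed the adjusted p threshold in 5 of 15 alternative analyses. Without GOF 2, the culture with the highest Lox of its group, the log2 fold change was -0.93 (edgeR adjusted p = 0.0165). In no alternative did it pass both thresholds. The antisense gene AC161119.1 overlaps 1207 bases of Lox and was not analysed here.

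Loxl1 (ENSMUSG00000032334.9, chromosome 9, 58287738 to 58313186, minus strand) encodes the enzyme most closely tied to elastic fibers, which binds fibulin-5 and acts on elastin. It measured 52.6, 49.9 and 48.1 FPKM in Control 0, 1 and 2, and 34.0, 32.9 and 26.9 FPKM in GOF 0, 1 and 2. All 3 GOF cultures were below all 3 Control cultures, with GOF 2 the lowest. In fragments this was 5939, 6945 and 6097 against 4320, 3722 and 3717.

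The mean of Loxl1 was 50.2 ± 2.27 FPKM in Control and fell to 31.2 ± 3.83 FPKM in GOF (SD, n = 3 each). The fitted log2 fold change was -0.74 (SE 0.12, 95% interval -1.01 to -0.47, edgeR adjusted p = 0.00462). Its ratio of mean FPKM, 0.623, was also that of Lox, while its spread among GOF cultures was narrower (SD 12.3% of the mean). It passed the adjusted p threshold in 15 of 15 alternatives and the fold threshold in none of them.

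**Figure D1:**
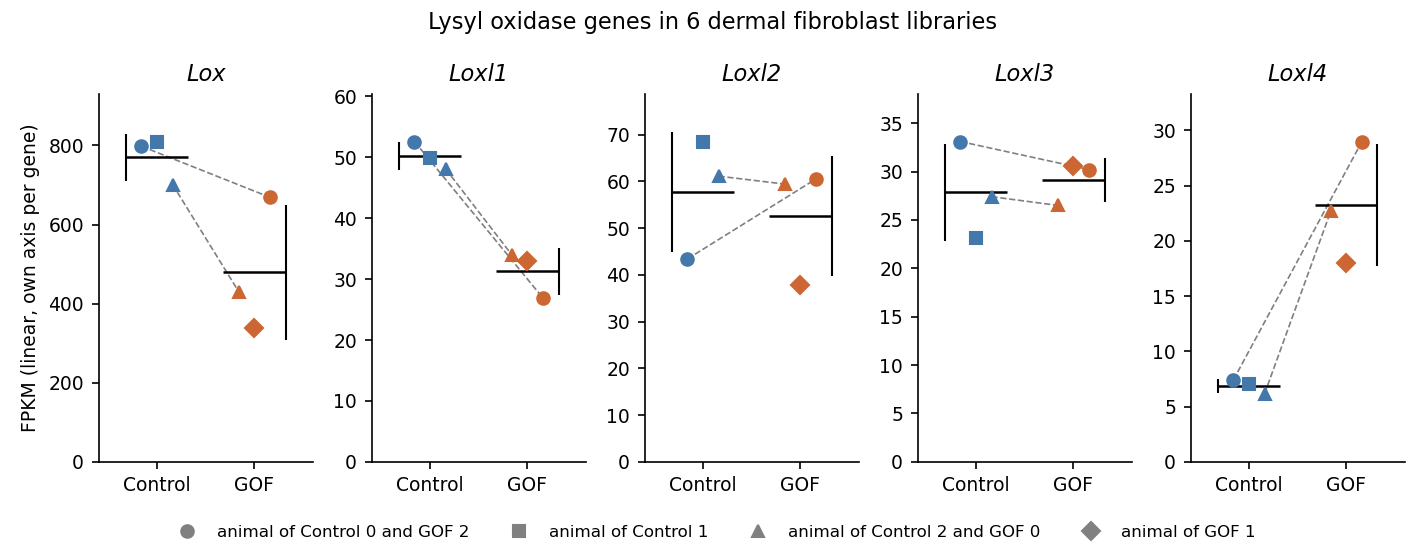
FPKM of each lysyl oxidase gene in the 3 Control (blue) and 3 GOF (orange) cultures, on a linear axis of its own from 0. Each marker shape is 1 animal, dashed lines join the cultures of an animal that gave one to each group, horizontal bars are means and vertical bars SD. Lox, Loxl1 and Loxl4 do not overlap between the groups, Loxl2 and Loxl3 do, and GOF 2 has the highest Lox and Loxl4 and the lowest Loxl1 of the GOF cultures.

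Loxl2 (ENSMUSG00000034205.11, chromosome 14, 69609068 to 69695834, plus strand) encodes an enzyme that crosslinks collagen IV of basement membranes and is also known as a partner of the Snail repressors. It measured 43.4, 68.5 and 61.1 FPKM in Control 0, 1 and 2, and 59.4, 37.8 and 60.5 FPKM in GOF 0, 1 and 2. Each group held 1 low culture, Control 0 and GOF 1, and 2 cultures near 60 FPKM or above. The means were 57.7 ± 12.9 and 52.6 ± 12.9 FPKM (SD, n = 3 each). The log2 fold change was -0.16 (SE 0.24, 95% interval -0.71 to 0.39, edgeR adjusted p = 0.665), so that a difference in either direction of the sizes in that interval could not be told from none. Its sign turned when GOF 1 was left out (0.03, edgeR adjusted p = 0.952) and when the animal was taken as a block (0.21, edgeR adjusted p = 0.416). The antisense gene Gm27177, which spans much of Loxl2, had at most 1 fragment in any library.

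Loxl3 (ENSMUSG00000000693.5, chromosome 6, 83034173 to 83052562, plus strand) encodes an enzyme needed for the palate and spine in mouse development. It measured 33.1, 23.1 and 27.4 FPKM in Control 0, 1 and 2, and 26.5, 30.6 and 30.2 FPKM in GOF 0, 1 and 2. The GOF cultures lay within the range of the Control cultures. The means were 27.9 ± 4.99 and 29.1 ± 2.24 FPKM (SD, n = 3 each), with a log2 fold change of 0.04 (SE 0.14, 95% interval -0.27 to 0.36, edgeR adjusted p = 0.855). The sign turned without Control 1 (-0.04, edgeR adjusted p = 0.902) and with the animal as a block (-0.06, edgeR adjusted p = 0.766). The last 1297 bases of Loxl3 overlap Htra2, a mitochondrial protease gene on the opposite strand that had 1423 to 1822 fragments per library. The libraries were made with a stranded kit, but whether the counting used strand is not given in the sources used here, so the split of fragments between these genes is uncertain.

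Loxl4 (ENSMUSG00000025185.9, chromosome 19, 42593982 to 42612813, minus strand) encodes the member whose substrates are the least characterized. It measured 7.42, 7.04 and 6.16 FPKM in Control 0, 1 and 2, and 22.7, 18 and 29.0 FPKM in GOF 0, 1 and 2. The lowest GOF culture was above the highest Control culture by over 10 FPKM. The fragments numbered 1090, 1213 and 1054 in Control and 3897, 2852 and 5022 in GOF.

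The mean of Loxl4 was 6.88 ± 0.646 FPKM in Control and rose to 23.2 ± 5.53 FPKM in GOF (SD, n = 3 each). Its fitted log2 fold change was 1.75 (SE 0.20, 95% interval 1.29 to 2.21, edgeR adjusted p = 0.00135). By adjusted p it ranked 323 among the 15462 genes tested. An exact two-sided permutation test of its FPKM gave the smallest possible p, 0.1. It passed both thresholds in 15 of 15 alternatives, with log2 fold changes of 1.55 to 1.93.

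**Figure D2:**
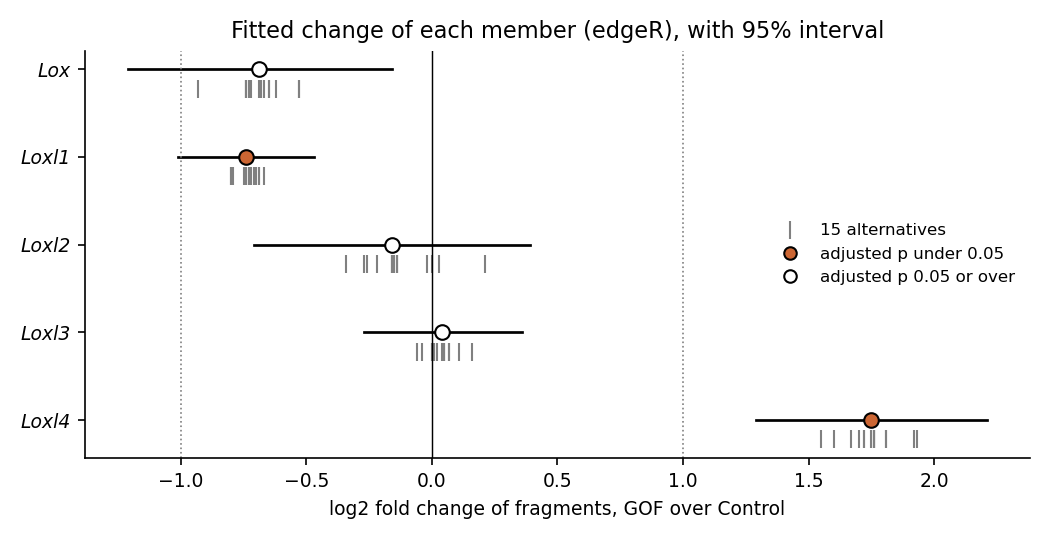
Fitted log2 fold change, GOF over Control, of each member (dot, filled where the adjusted p was under 0.05) with its 95% interval (line) and its values in 15 alternative analyses (ticks). Dotted lines mark a 2-fold change. Loxl4 at 1.75 lies beyond the upper line in every alternative, Loxl1 at -0.74 and Lox at -0.69 lie between 0 and the lower line, and the ticks of Loxl2 and Loxl3 fall on both sides of 0.

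In both animals that gave a culture to each group, Loxl4 was higher and Loxl1 and Lox were lower in the GOF culture. In the animal of Control 0 and GOF 2 the log2 ratio of FPKM was 1.97 for Loxl4, -0.97 for Loxl1 and -0.25 for Lox. In the animal of Control 2 and GOF 0 it was 1.88 for Loxl4, -0.50 for Loxl1 and -0.71 for Lox. Lox and Loxl1 thus differed in which animal showed the larger difference, while Loxl4 was close between the animals. For Loxl2 the ratios were 0.48 and -0.04, and for Loxl3 -0.13 and -0.05, in the same order of animals.

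FPKM is scaled to transcript length, so the members can be set side by side within a library. In every Control culture Lox was highest and Loxl4 lowest. Loxl2 (43.4 to 68.5 FPKM) and Loxl1 (48.1 to 52.6 FPKM) did not differ beyond their spread, and in Control 0 Loxl1 was above Loxl2. Loxl3, at 23.1 to 33.1 FPKM, lay below both and above Loxl4 in each Control culture. In GOF cultures Lox stayed highest and Loxl2 next, at 37.8 to 60.5 FPKM. Below them Loxl1 (26.9 to 34.0 FPKM), Loxl3 (26.5 to 30.6 FPKM) and Loxl4 (18 to 29.0 FPKM) overlapped, and in GOF 2 Loxl4 was above Loxl1.

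Summed over the 5 members, the level was 934, 959 and 844 FPKM in Control 0, 1 and 2 and 573, 458 and 816 FPKM in GOF 0, 1 and 2. The mean sum was 912 ± 60.3 FPKM in Control and 616 ± 183 FPKM in GOF (SD, n = 3 each), a ratio of 0.675, and GOF 2 again lay close to the Control cultures. Of the difference of -296 FPKM, -290 FPKM came from Lox and -18.9 FPKM from Loxl1, offset by 16.3 FPKM of Loxl4. Without Lox the sums were 143 ± 6.06 and 136 ± 14.8 FPKM and overlapped, a ratio of 0.955.

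Within the sum, Lox made up 85.4, 84.5 and 83.1% in Control and 75.1, 74.0 and 82.0% in GOF, so its share in GOF 2 was near that of the controls. Loxl4 made up 0.730 to 0.795% of the sum in Control and 3.55 to 3.97% in GOF. Among Loxl1 to Loxl4 alone, the share of Loxl4 was 4.83 ± 0.567% in Control and 16.9 ± 2.51% in GOF, and that of Loxl1 35.3 ± 2.83% and 23.2 ± 4.65% (SD, n = 3 each). The shares of Loxl2 (40.2 and 38.2%) and Loxl3 (19.7 and 21.6%) among these 4 genes differed by less than their SD.

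**Figure D3:**
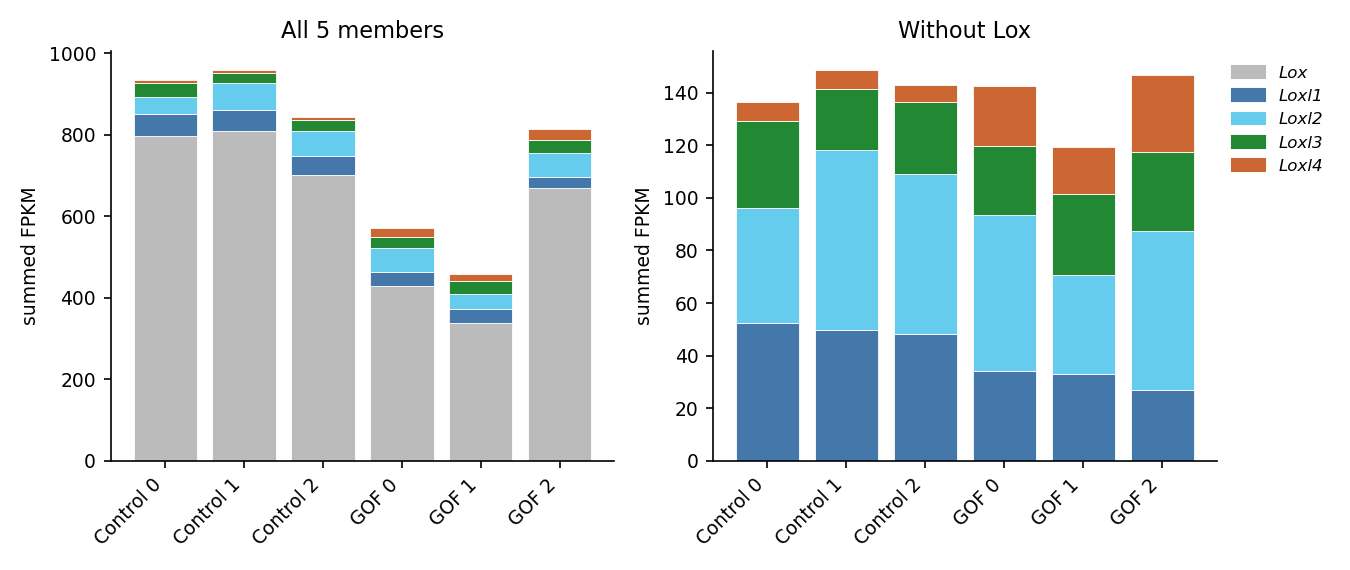
Summed FPKM of the lysyl oxidase family in each library, as stacked bars from 0, with all 5 members and with Lox left out. With Lox the Control bars reach 844 to 959 FPKM and the GOF bars 458 to 816 FPKM, and without it all 6 bars lie between 119 and 149 FPKM, with a larger Loxl4 segment in each GOF bar.

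Ratios between members within a library do not depend on how libraries were scaled. Lox was 107 to 115 times Loxl4 in Control cultures and 18.9 to 23.1 times Loxl4 in GOF cultures. Loxl1 was 7.08 to 7.80 times Loxl4 in Control and 0.927 to 1.83 times in GOF. The ratio of Loxl2 to Loxl4 was 5.84 to 9.91 and 2.09 to 2.62, and that of Loxl3 to Loxl4 3.28 to 4.46 and 1.04 to 1.70, in the same order of groups. Each ratio to Loxl4 was thus lower in every GOF culture than in any Control culture.

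Ratios among the other members moved less. Lox to Loxl2 was 11.5 to 18.4 in Control and 7.23 to 11.1 in GOF, Lox to Loxl3 24.1 to 35.0 and 11.1 to 22.2, and Loxl1 to Loxl3 1.59 to 2.16 and 0.891 to 1.28, again without overlap. Lox to Loxl1 was 14.6 to 16.2 in Control and 10.3 to 24.9 in GOF, so the GOF cultures lay on both sides of the controls. For the 7 of 10 pairs whose log2 ratios did not overlap, the exact two-sided permutation p was 0.1, the smallest possible, and 0.143 after adjustment over the 10 pairs (Benjamini-Hochberg). For the other pairs the exact permutation p was 1 (Lox to Loxl1), 0.3 (Loxl1 to Loxl2) and 0.6 (Loxl2 to Loxl3).

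The profiles of the members over the 6 libraries were compared as log2(FPKM + 1), each centred on its own mean, by their root mean square difference. Loxl4 was farthest from the others, at 0.804 from Loxl3 up to 1.17 from Lox and from Loxl1, while the distances among the other 4 were 0.385 to 0.522. Among 11146 protein-coding genes, those nearest to Loxl4 were Pmaip1, a pro-apoptotic BH3 protein gene, at 0.0679, Trim7 at 0.0733 and Ivl, a cornified envelope precursor of keratinocytes, at 0.0857. Pmaip1 measured 9.79 FPKM in Control and 30.8 in GOF (log2 fold change 1.66), and Ivl 0.316 and 3.10 FPKM (log2 fold change 3.24). For comparison, the median gene lay at 0.84 from Loxl4. Adding 1 to the FPKM compresses the differences of low genes, so a low gene near a member on this scale can have a larger fold change than it, as Ivl does against 1.75 for Loxl4. Ivl also reached the mean of 1 FPKM only through the GOF cultures.

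Nearest to Lox were Smad6, an inhibitory Smad, at 0.0721, D130040H23Rik at 0.0931 and Adm, the adrenomedullin gene, at 0.102, where the median gene lay at 0.507. Nearest to Loxl1 were Clspn, a DNA replication checkpoint gene, at 0.0363, Cdc25b, a cell cycle phosphatase gene, at 0.0574 and Lrrn4cl at 0.0708, where the median gene lay at 0.412. Clspn (1.69 FPKM in Control and 0.697 in GOF) and Cdc25b (2.78 and 1.33 FPKM) were low genes with log2 fold changes of -1.28 each, beyond the -0.74 of Loxl1, and their closeness was measured on this scale only. Clspn reached the mean of 1 FPKM only through the Control cultures. Dhtkd1 (0.0533), Arhgef10 (0.0759) and Zfp408 (0.0929) were nearest to Loxl2, and Tmem237 (0.0261), Bcl7b (0.0297) and Gm49342 (0.0321) to Loxl3. The median gene lay at 0.379 from Loxl2 and at 0.269 from Loxl3. Every other member was farther than that from Loxl2 (0.41 or more) and from Loxl3 (0.419 or more). These are descriptions over 6 libraries that share the group difference.

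Of 82 further genes of the lysyl oxidase pathway in 9 lists, 72 were tested. Of these 3 were called higher (5 without Control 0) and 15 lower (10 without GOF 1, 11 with the animal as a block). Together they were 25% of those tested, where 6.69% of all genes were called higher and 5.64% lower. Their median log2 fold change was -0.29, and that of all genes tested was -0.02. The counts of called genes were 0 higher and 3 lower of 8 tested among collagen substrates, 0 and 6 of 13 among elastin and microfibril genes, and 0 and 2 of 11 among binding partners and activating proteinases.

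Eln, which encodes tropoelastin, a principal substrate of Lox and Loxl1, measured 3.43, 11.2 and 8.97 FPKM in Control 0, 1 and 2 and 0.0957, 0.0140 and 0.177 FPKM in GOF 0, 1 and 2. It rested on 257, 1001 and 762 fragments against 8, 1 and 17, and its log2 fold change was -6.27 (SE 0.72, edgeR adjusted p = 0.00142). The microfibril genes Mfap4 (log2 fold change -3.84) and Mfap2 (-2.62) and the elastic fiber glycoprotein genes Emilin2 (-1.67) and Emilin1 (-1.27) fell as well, and each passed the adjusted p threshold in 15 of 15 alternatives. Fbn1, the main microfibril protein gene, measured 95, 267 and 265 FPKM in Control and 83.6, 49.4 and 92.2 FPKM in GOF. Its log2 fold change was -1.51 (edgeR adjusted p = 0.0386), but it passed in 6 of 15 alternatives. With the animal as a block it was -0.87 (adjusted p = 0.136), and without Control 1, Control 2, GOF 0, GOF 1 or GOF 2 the adjusted p was 0.112, 0.0999, 0.109, 0.118 or 0.0587 (edgeR). The median of the 13 elastin and microfibril genes was -0.99.

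Of the 8 tested collagen substrate genes 3 were called lower and 5 were not called, with a median of -0.17. Col1a1 measured 247, 115 and 135 FPKM in Control and 248, 124 and 128 FPKM in GOF (log2 fold change 0.00, SE 0.40, edgeR adjusted p = 0.995), with the first culture of each group the highest. Col1a2, the partner chain of type I collagen, measured 585, 954 and 1060 FPKM against 540, 300 and 320 FPKM (-1.18, edgeR adjusted p = 0.0375). Its adjusted p was 0.11 without Control 1, 0.105 without Control 2, 0.116 without GOF 1 and 0.0919 without GOF 2 (edgeR). Of the minor fibrillar chains, Col5a3 was called lower (-1.20, edgeR adjusted p = 0.0213) and so was Col11a2 (-1.13, edgeR adjusted p = 0.0397, at under 1 FPKM in every library). Col5a3 missed the threshold without Control 1 (0.0627) or GOF 0 (0.0654), and Col11a2 without any 1 of 5 libraries (0.0707 to 0.131, all edgeR adjusted p). With the animal as a block the log2 fold changes of Col1a2, Col5a3 and Col11a2 were -0.88, -0.89 and -0.97. None of these 3 collagen genes then reached a 2-fold change. Col5a1 measured 76.4 to 103 FPKM in Control and 46.9 to 102 FPKM in GOF (log2 fold change -0.2, edgeR adjusted p = 0.692). The study's text names Loxl4 and Col5a1 as up-regulated in GOF, whereas here Col5a1 was not called. Col3a1 and Col5a2, and the matrix protein genes Postn and Thbs1, could not be tested, since the quantification stopped at too many fragments and listed them at 0 in all 3 controls (Thbs1 in all 6 libraries).

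**Figure D4:**
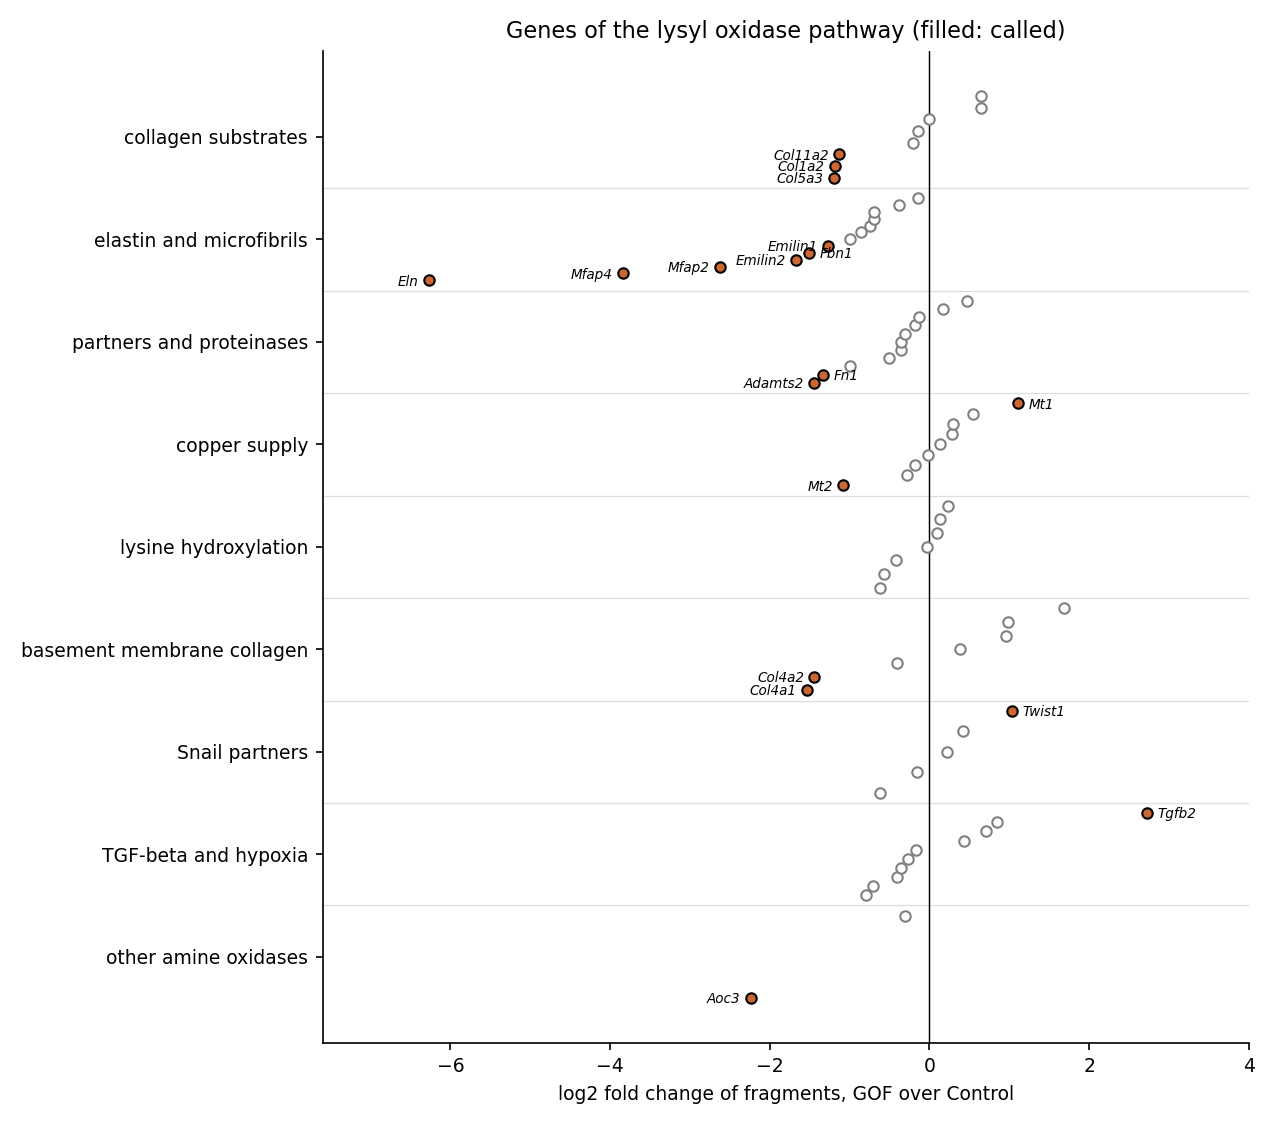
Log2 fold change, GOF over Control, of each tested gene of the 9 pathway lists, with called genes filled and named. Of 72 genes 15 are called lower, led by Eln at -6.27, and 3 are called higher, Tgfb2 at 2.73, Mt1 at 1.11 and Twist1 at 1.04.

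Among the partners, Efemp2 (fibulin-4), which brings Lox to elastin, measured 198 to 204 FPKM in Control and 182 to 189 FPKM in GOF (log2 fold change -0.18, edgeR adjusted p = 0.286). Fbln5 (fibulin-5), which binds Loxl1, measured 98.8 to 118 and 115 to 132 FPKM (0.17, edgeR adjusted p = 0.432). Bmp1, the proteinase that removes the propeptide of Lox, measured 56.1 to 60.4 and 42.9 to 52.0 FPKM (-0.35, edgeR adjusted p = 0.0715). Among the partners 2 were called lower: Adamts2, a procollagen N-proteinase gene, at -1.44 (edgeR adjusted p = 0.00215), and Fn1, the fibronectin gene, at -1.33 (edgeR adjusted p = 0.0176, and 0.0658 without GOF 1).

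Of the 9 tested genes of copper supply, 1 was called in each direction, and both were metallothioneins. Mt1 measured 276 to 290 FPKM in Control and 612 to 665 FPKM in GOF (1.11, edgeR adjusted p = 0.000939), and Mt2 68.7 to 80.3 and 28.0 to 44.5 FPKM (-1.08, edgeR adjusted p = 0.00482). Atp7a, the pump that loads copper onto secreted enzymes, measured 3.25 to 4.69 and 3.02 to 3.81 FPKM (-0.28, edgeR adjusted p = 0.32). The list's median was 0.13.

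Of the 7 genes of lysine hydroxylation, which prepares collagen for particular crosslinks, none was called. P3h3 was lower (-0.62, edgeR adjusted p = 0.0109, and 0.0528 without Control 1 and 0.0523 without GOF 0), and Plod2, the telopeptide lysyl hydroxylase gene, measured 51.8 to 67.2 FPKM in Control and 35.2 to 59.0 FPKM in GOF (-0.42, edgeR adjusted p = 0.161). Among the 7 genes of basement membrane collagen and its peroxidase, Col4a1 fell from 228 to 80.6 FPKM (-1.53, edgeR adjusted p = 0.00342) and Col4a2 from 104 to 39.2 FPKM (-1.44, edgeR adjusted p = 0.00767). The other 5 were not called, and the median of this list was 0.38. The genes of the list with log2 fold changes above that median averaged at most 0.921 FPKM in either group.

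The list of Snail partners of Loxl2 and Loxl3 also holds genes outside the Snail family, and 5 of its genes were tested. Of these Twist1, a mesenchymal transcription factor gene and not a Snail gene, was called higher (31.1 FPKM in Control and 66 FPKM in GOF, log2 fold change 1.04, edgeR adjusted p = 0.00252). Twist1 passed the adjusted p threshold in 15 of 15 alternatives. Its log2 fold change was under a 2-fold change with the animal as a block (0.96) and without GOF 1 (0.92). The Snail genes tested were not called. Snai1 measured 3.49 to 4.99 FPKM in Control and 2.23 to 4.84 FPKM in GOF (-0.16, edgeR adjusted p = 0.713). Snai2 measured 4.94 to 6.66 FPKM in Control and 2.46 to 4.67 FPKM in GOF (-0.62, edgeR adjusted p = 0.161). Of the 10 genes of TGF-beta and hypoxia, known inducers of Lox, 1 was called: Tgfb2 measured 3.04, 3 and 2.25 FPKM in Control and 17.3, 11.4 and 27.4 FPKM in GOF (2.73, SE 0.29, edgeR adjusted p = 0.00111). Tgfbr2 (0.71) and Ccn2 (0.85) were higher and Tgfbr1 (-0.71) lower at an adjusted p under 0.05 without reaching a 2-fold change, and the first and second of these missed the threshold without any of several single libraries. Of the other copper amine oxidases, which act on small amines, Aoc3 fell from 2.29 to 0.482 FPKM (-2.24, edgeR adjusted p = 0.00148) and Aoc2 was not called. The medians were -0.35 for partners and proteinases, -0.03 for lysine hydroxylation, 0.22 for the list of Snail partners and -0.22 for TGF-beta and hypoxia.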

How the data were processed

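RNA-seq of 6 fibroblast cultures (3 Control, 3 GOF, grouped by their labels) was analysed from the gene table of the series. The authors mapped 100 bp paired-end reads to mm10 with TopHat and quantified genes with Cuffdiff, per the labels and the study's methods. The deposited estimated counts are fragments per gene and library, and the deposited FPKM values were normalized by the authors to transcript length and mapped fragments. Of the values, 4.95% were not whole and were rounded. In the members 0 values were. Gene symbols came from GENCODE M21 (GRCm38), which matched 97.9% of genes. Left out were 32 genes with a failed estimate, 23 of them with too many fragments. The table of long non-coding RNAs and 2 columns per library of rescaled fragments were not used.

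Fragments were tested with edgeR 4.0.16 in R 4.3.3 (TMM, filterByExpr, quasi-likelihood F test, no covariate) over 15462 genes with Benjamini-Hochberg adjustment. Genes passing both of the study's thresholds (fold change above 2, adjusted p below 0.05) were called. The SE was the absolute log2 fold change divided by the square root of F. Limits of the FPKM are those of the authors' estimates: FPKM per fragment of 1 member differed by 1.18 to 1.29 times between libraries. The test was run on simulated data first. Exact two-sided permutation tests compared FPKM and log2 ratios over libraries. Replicates are separate cultures, and p-values measure the spread between them.

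The members, gene lists, markers and the rule for named genes were chosen with earlier results of these data known. Named were the members, Axin2 and Ctnnb1, a set list of pathway genes, up to 3 called genes per pathway list by adjusted p, genes that overlap a member, and the 3 protein-coding genes of at least 1 FPKM nearest to each member in profile. Mfap2, Emilin1, Fbn1, Tgfbr1, Tgfbr2, Ccn2, P3h3, Snai1, Snai2 and Aoc2 were named after their values were seen.

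Whether numbers pair cultures was checked by correlating deviations from group means: same-numbered cultures gave r of -0.42, 0.05 and -0.40, and cultures of the same animal 0.37 and 0.48. The pairing by animal comes from the tags in the titles. Alternatives were DESeq2 1.42.0, library totals, other filters, limma 3.58.1 on log2(FPKM + 1) and log2(FPKM + 0.1), blocks by number or animal, a within-animal correlation (limma voom, 0.476), and leaving out each library. Promoters were RefSeq sequences on GRCm38.p6, matched by symbol. Lox was left out beforehand, and of the other members only Loxl4 was matched. CG pairs were put in capitals after the sequence was seen.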

Additional observations from a re-analysis of the deposited data

How the results depend on the processing

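Loxl4 stayed called and Loxl1 stayed past the adjusted p threshold in all 15 alternatives, and the number of members called was 1 in each. Lox passed the adjusted p threshold with DESeq2 (log2 fold change -0.68, adjusted p = 0.0117), with library totals (-0.73, edgeR adjusted p = 0.043), without the filter on low counts (-0.69, edgeR adjusted p = 0.0484) and with limma voom and a within-animal correlation (-0.65, adjusted p = 0.0176). Over all 15 its adjusted p ran from 0.0117 to 0.205. Leaving out 1 library gave log2 fold changes of -0.93 to -0.53 for Lox (edgeR adjusted p 0.0165 to 0.205), -0.80 to -0.69 for Loxl1, -0.34 to 0.03 for Loxl2, -0.04 to 0.16 for Loxl3 and 1.55 to 1.92 for Loxl4, and -0.82 to -0.39 for the summed FPKM of the family, which was -0.57 with all libraries. The count of all genes called, 1906, was 877 with limma on log2(FPKM + 1) and 1311 to 1961 with 1 library left out. It was 2135 without the filter on low counts and 2177 with limma voom and a within-animal correlation. The pathway genes called higher numbered 5 without the filter on low counts and 5 without Control 0. Over the libraries left out, 3 to 5 were called higher and 10 to 14 lower. With library totals 2 were called higher and 16 lower, and with limma voom 4 higher and 16 lower. The cause of these changes was not tested.

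When a replicate block by animal was fitted (1 residual degree of freedom), the log2 fold change was 0.21 for Loxl2 and -0.06 for Loxl3, both turned in sign, and -0.53 for Lox (edgeR adjusted p = 0.0983), -0.70 for Loxl1 (0.0193) and 1.93 for Loxl4 (0.000385). This pairing called 2008 genes and changed no call on a member. The pathway genes called lower numbered 11 with it, against 15 in the main fit. Control 1 and GOF 1, each alone in its animal, add nothing to the group difference in this fit. It rests on the 2 animals that gave a culture to each group, and its p-values lean on spread shared over genes. The label numbers do not pair the cultures, and a block on them called 1421 genes. The precision rests on 3 cultures a group from 4 animals, and each member had 1054 or more fragments in every library.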
